A study of Homo sapiens with 12 samples.

Results

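The genes described here are 33 known transcriptional targets of the tumour suppressor p53, taken from a list of symbols. The list was drawn up with earlier results of these data known. Of these 33 genes, 30 had a probe set annotated with exactly 1 symbol, and 29 reached the signal filter of at least 5 log2 units on at least 3 arrays, out of 10050 genes tested in all. BTG2, BBC3 and FDXR had no probe set with 1 symbol and were not analysed here. SPATA18, a gene of mitochondrial quality control, stayed near background, where its group means on the log2 scale were 2.83 (Ra 12 h), 2.83 (control 12 h), 2.86 (Ra 48 h) and 2.84 (control 48 h). The list holds genes of cell cycle arrest (CDKN1A, GADD45A, PLK2, PLK3, BTG2), feedback on p53 (MDM2, PPM1D, CCNG1, FBXO22, RPS27L), DNA repair (DDB2, XPC, POLH, RRM2B), metabolism (SESN1, SESN2, TIGAR, TP53I3, FDXR, SPATA18) and apoptosis (the other 13).

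HK-2 cells, a line made from the proximal tubule of a human kidney, were exposed to a compound labelled Ra for 12 h or 48 h, and control cells received the vehicle for the same times. Each of the 4 groups (Ra 12 h, control 12 h, Ra 48 h, control 48 h) had 3 samples that the labels call biological replicates, and total RNA was hybridised to Affymetrix expression arrays. No source used here says what Ra is or how much was given. The series was made to look for expression signatures of kidney toxicity, and the comparisons below ask what the p53 targets did in treated cells and over time.

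p53 is a transcription factor that is held low by MDM2, a ubiquitin ligase, and accumulates after DNA damage and other stresses. It binds pairs of short half-sites near its targets, which halt the cell cycle, repair DNA, shift metabolism or start apoptosis, and some of which act back on p53 itself. In the kidney tubule, p53 targets such as CDKN1A are known to rise after injury by toxic drugs. HK-2 cells were immortalised with the E6 and E7 genes of a human papillomavirus, and all 4 groups share this background. E6 is known to direct p53 to degradation through the ubiquitin ligase UBE3A. Neither p53 protein nor E6 was measured. Several of the listed genes are also known targets of other factors: SESN2, TNFRSF10B, PMAIP1, GADD45A and BBC3 of ATF4 or CHOP, which act in the unfolded protein and amino acid responses.

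All values are GCRMA expression values on the log2 scale, in which 1 unit is a 2-fold change, and their precision is limited by 3 arrays per group. Of 13 proximal tubule and epithelial markers with a probe set, KRT8, KRT18, CDH2, PAX8 and DPP4 were above the filter, while the apical genes AQP1, CUBN, LRP2, SLC34A1 and SLC5A2 had group means of 2.10 to 3.27 log2 units. Of 7 fibroblast markers, COL1A1, LUM and DCN were above the filter, with LUM at group means of 9.21 to 10.06, and of 5 endothelial, 4 immune and 3 distal nephron markers 0 were. The mean of the fibroblast list lay between 5.30 and 5.57 in the 4 groups, and 0 of these markers passed the test with Ra at 48 h. At 12 h, in the 6-array model used below, PAX8 fell (-0.46, limma adjusted p = 0.0225). The other 4 proximal tubule and epithelial markers above the filter had higher means: DPP4 0.38, CDH2 0.18, KRT8 0.11 and KRT18 0.04. DPP4 and the fibroblast marker LUM (0.44) passed only when that model was blocked by replicate (limma adjusted p = 0.0127 and 0.0105). COL1A1 gave 0.33 and DCN 0.38. The part of these markers in the results was not tested. Ra 48 h replicate 2 stood apart from the other 11 arrays: the upper quartile of its probe sets was 6.30 log2 units, against 7.01 to 7.21 on the others, and its mean over all tested genes relative to control 12 h was -0.69, against -0.05 to 0.08 on the others. Its ACTB signal was higher at the 3′ end than at the 5′ end of the transcript by 1.13 log2 units, a sign of how intact the RNA was, and the other arrays ranged from 0.79 to 1.19. Medians of gene groups and the calls at 48 h are therefore given with and without it.

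At 12 h the p53 targets as a list did not stand apart from other genes. The median log2 difference of the 29 genes, Ra minus control, was 0.03, against 0.01 over all 10050 genes, with 16 higher and 13 lower means, and the median size of a member's difference was 0.14, against 0.17 over all genes. In the linear model of all 12 arrays (limma, Benjamini-Hochberg adjusted p under 0.05 over all genes), 0 of the 29 passed, where 0.0299% of all genes did, and at an unadjusted p under 0.05 4 members and 7.47% of all genes did. That model shares its estimate of spread with the 48 h arrays, whose members varied more between replicates: the median SD was 0.14 in both 12 h groups, 0.50 with Ra at 48 h and 0.20 in control cells at 48 h. A model of the 6 arrays of 12 h alone called 3 rises and 2 falls among the 29, where 13.6% of all genes were called (7.34% higher and 6.25% lower, and 30.8% at an unadjusted p under 0.05). The groups did not overlap for 4 higher and 3 lower members at 12 h, and for 35.3% of all genes (18.4% higher and 16.9% lower). These are bulk RNA measurements, so less transcript per cell and fewer cells that carry it cannot be told apart.

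The rises at 12 h were those of DDB2, CCNG1 and TNFRSF10B. DDB2, which recognises ultraviolet damage for nucleotide excision repair, had 7.85, 8.22 and 8.28 log2 units with Ra, against 7.70, 7.28 and 7.59 in control cells. All 3 treated arrays lay above all controls, and the difference was 0.60 ± 0.16 (SE of the 6-array model, limma adjusted p = 0.0464, and 0.556 in the 12-array model). CCNG1, a cyclin that recruits a phosphatase to MDM2, had 12.76, 12.81 and 12.57 with Ra, against 12.41, 12.14 and 12.19 in control cells, a difference of 0.47 ± 0.09 (6-array limma adjusted p = 0.0205, 12-array 0.45). TNFRSF10B, a receptor for the death ligand TRAIL, had 11.69, 11.67 and 11.72 with Ra, against 11.42, 11.45 and 11.20 in control cells. Its 3 treated arrays were within a narrow band above every control, and the difference was 0.34 ± 0.08 (6-array limma adjusted p = 0.0322, 12-array 0.654), while its other probe sets gave 0.06 and 0.25.

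The 2 falls in the 6-array model at 12 h were those of TIGAR and SESN2, both of the metabolic targets. TIGAR, an enzyme that lowers glycolytic flux, had 9.89, 9.77 and 9.73 log2 units with Ra, against 10.40, 10.25 and 10.36 in control cells, without overlap. The difference was -0.54 ± 0.08 (6-array limma adjusted p = 0.011, 12-array 0.599). SESN2, a sestrin that restrains mTORC1 signalling when leucine is scarce, had 7.49, 7.71 and 7.76 with Ra, against 8.25, 8.05 and 8.20 in control cells. It too did not overlap, at -0.51 ± 0.11 (6-array limma adjusted p = 0.0259, 12-array 0.947), and its other probe set gave -0.39. The replicate numbers paired the 12 h arrays by their correlations, and with the number as a block in the 6-array model 2 further members rose. These were MDM2 (9.54, 9.60 and 9.29 with Ra, against 9.06, 9.32 and 9.08 in control cells; difference 0.32, limma adjusted p = 0.0374 with the block and 0.107 without) and PERP, a desmosome protein with a role in apoptosis (difference 0.37, adjusted p = 0.00867 with the block and 0.125 without). Other MDM2 probe sets above the filter gave smaller differences, 0.20 and 0.02, at mean signals of 7.44 and 5.26 against 9.40. Another PERP probe set gave 0.45. In the blocked model 23.4% of all genes were called.

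The most studied arrest gene, CDKN1A, which encodes the cyclin-dependent kinase inhibitor p21, had 10.85, 10.83 and 10.15 log2 units with Ra at 12 h, against 11.02, 10.58 and 10.14 in control cells. The groups overlapped throughout, with a difference of 0.03 ± 0.32 (12-array limma adjusted p = 0.999). GADD45A, a stress protein that slows the cell cycle, gave -0.10 ± 0.25, PLK3 0.35 ± 0.28 and PLK2 0.12 ± 0.27, and 0 of these 4 arrest genes passed in either model. The members not yet named at 12 h ranged from -0.25 for AEN to 0.32 for TP53INP1, and 0 of them passed in either model.

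**Figure D1:**
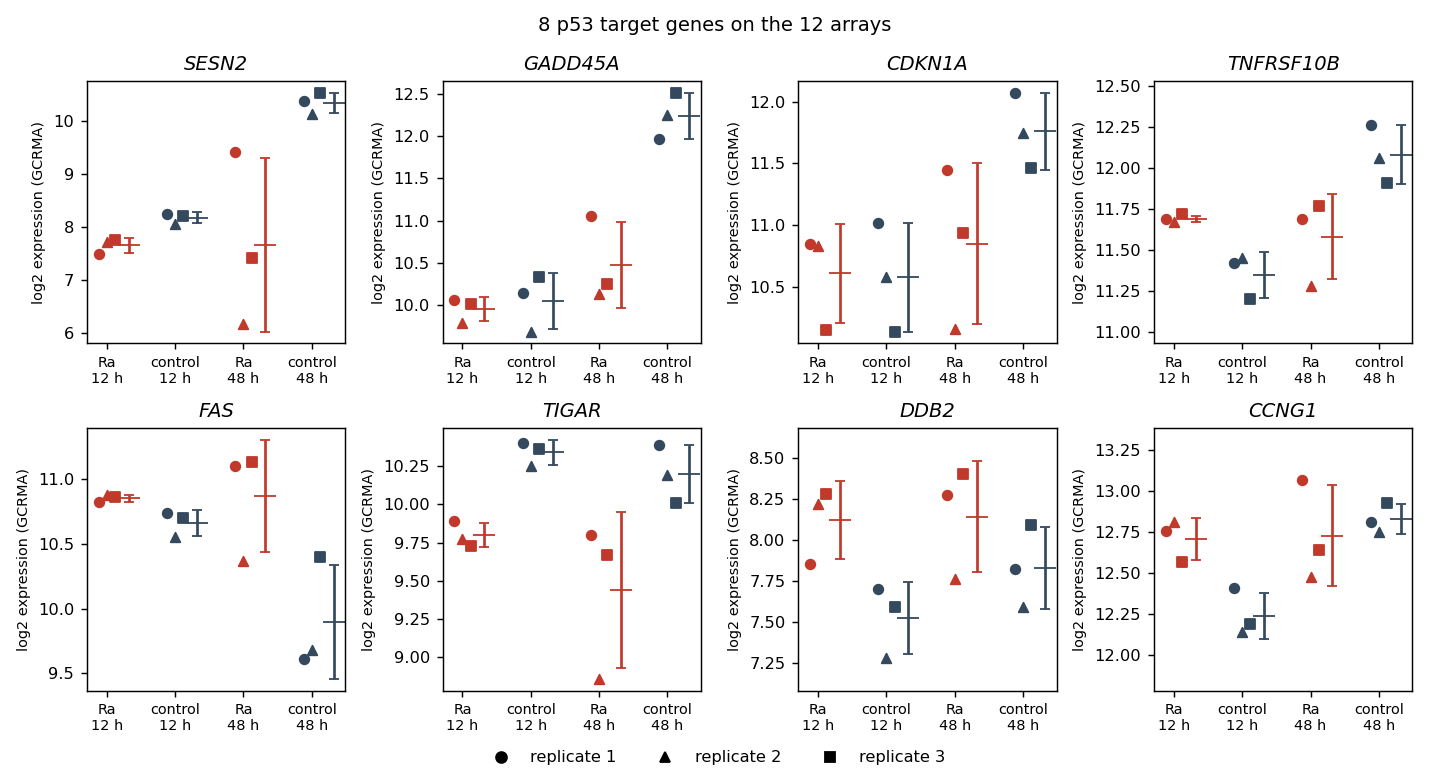
GCRMA expression (log2 units, vertical axis) of 8 p53 targets in Ra and control cells at 12 h and 48 h. Each point is 1 array, its shape the replicate number, and the bar beside the points is the mean ± SD (n = 3). SESN2 and GADD45A in control cells at 48 h lie above every other array, while the 3 FAS values of Ra cells at 48 h lie at 10.37 to 11.13 against 9.61 to 10.40 in control cells.

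At 48 h, SESN2, GADD45A and TIGAR fell and FAS rose with Ra, and most other members had lower means. The median log2 difference of the 29 members was -0.34, with 6 higher and 23 lower, against a median of -0.20 over all tested genes. In the 12-array model 4 members passed (1 rise and 3 falls), where 12.6% of all genes did (3% higher and 9.56% lower). In a model of the 6 arrays of 48 h alone 0 members and 0% of all genes passed, and at an unadjusted p under 0.05 17.4% of genes did. With the replicate number as a block SESN2 and GADD45A passed among 1.3% of genes, but the 48 h arrays did not bear out that pairing. The groups did not overlap for 1 higher and 9 lower members, and for 24% of all genes (5.37% higher and 18.6% lower).

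SESN2 had 9.41, 6.18 and 7.41 log2 units with Ra at 48 h, against 10.36, 10.13 and 10.51 in control cells. Each treated array lay below every control array, and the treated arrays differed widely among themselves. The difference was -2.67 ± 0.56 (SE; 6.354-fold lower; 12-array limma adjusted p = 0.0171, 6-array 0.193), and the other probe set gave -2.71. GADD45A had 11.06, 10.13 and 10.25 with Ra, against 11.97, 12.25 and 12.51 in control cells. Here too the groups were clearly apart, at -1.76 ± 0.25 (3.396-fold lower; limma adjusted p = 0.00822, 6-array 0.191). TIGAR had 9.80, 8.86 and 9.67 with Ra, against 10.39, 10.19 and 10.01 in control cells, without overlap, a difference of -0.76 ± 0.22 (1.688-fold lower; limma adjusted p = 0.0446, 6-array 0.272).

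FAS, a death receptor of the TNF family, was the 1 member that rose at 48 h. It had 11.10, 10.37 and 11.13 log2 units with Ra, against 9.61, 9.68 and 10.40 in control cells. The groups touched at 1 point, where Ra replicate 2 lay just under control replicate 3. The difference was 0.96 ± 0.24 (1.952-fold; limma adjusted p = 0.0255, 6-array 0.228), and the 3 other FAS probe sets gave 1.27, 1.03 and 1.00. Of these 4 calls only that of GADD45A held when any 1 of the 12 arrays was left out. SESN2 lost its call without control 48 h replicate 1 or 2 (adjusted p = 0.0633 and 0.0705), and FAS without either of these or without Ra 48 h replicate 3 (0.105, 0.107 and 0.0666). TIGAR was no longer called after removal of any single 12 h array (0.0655 to 0.0689), of Ra 48 h replicate 3 (0.0551) or of control 48 h replicate 1 or 2 (0.158 and 0.132). With no filter on low signal SESN2, FAS and TIGAR also lost their calls (adjusted p = 0.0534, 0.0633 and 0.0927).

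**Figure D2:**
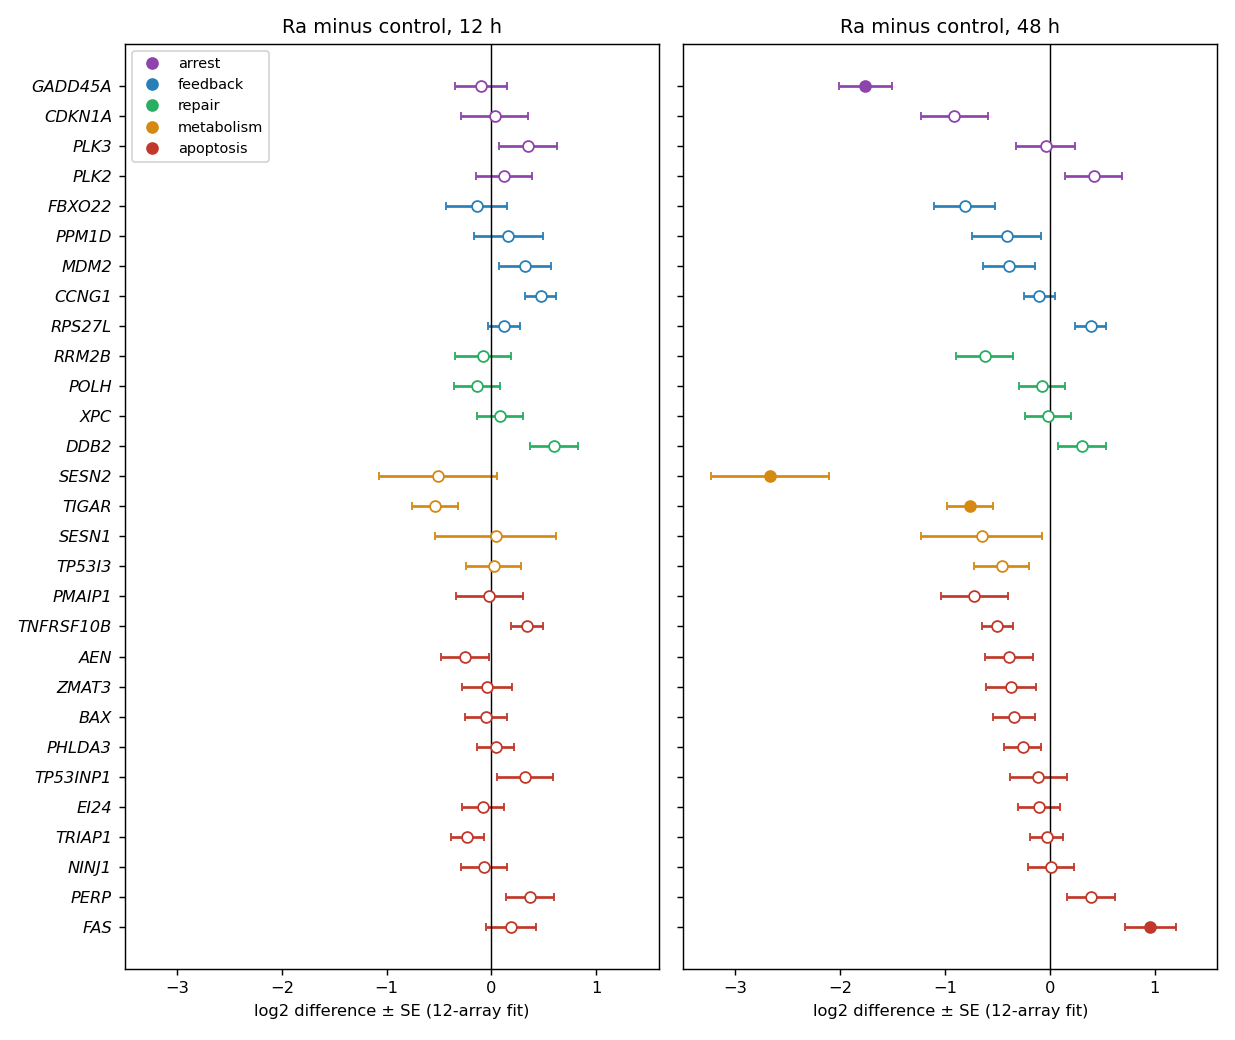
Log2 difference, Ra minus control (horizontal axis, ± SE of the 12-array model), for the 29 tested p53 targets at 12 h (left) and 48 h (right), coloured by role. Filled points passed an adjusted p of 0.05 (0 at 12 h; SESN2, GADD45A, TIGAR and FAS at 48 h), and open points did not.

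By role, the arrest genes had a median difference of -0.47 at 48 h, and of -0.17 without Ra replicate 2. CDKN1A had 11.45, 10.16 and 10.94 log2 units with Ra, against 12.07, 11.75 and 11.46 in control cells, all treated arrays below all controls by a small margin. Its difference was -0.91 ± 0.32 (limma adjusted p = 0.0791, and 0.0352 with the replicate number as a block, a pairing that the 48 h arrays did not bear out). PLK2, a polo-like kinase, gave 0.42 ± 0.27 and PLK3 -0.04 ± 0.28. Among the 5 feedback genes 0 passed, with a median of -0.39, and of 0.02 without that array. FBXO22, the substrate-binding subunit of a ubiquitin ligase, was lowest at -0.81 ± 0.29 (limma adjusted p = 0.0778), and its other probe sets gave -0.64 and -0.73. The phosphatase gene PPM1D gave -0.41, MDM2 -0.39, CCNG1 -0.10 and RPS27L, a ribosomal protein homologue that binds MDM2, 0.39 ± 0.15 (adjusted p = 0.0923) without overlap. The 4 repair genes had a median of -0.04, and of 0.14 without that array, and ranged from -0.62 for RRM2B, a subunit of ribonucleotide reductase, to 0.31 for DDB2, with XPC, which senses DNA lesions, at -0.02. POLH, a polymerase that copies past lesions, gave -0.07, while its 3 other probe sets above the filter gave -0.79, -0.82 and -0.65. Its value thus depends on the probe set. Those 3 had lower mean signals, 4.73, 5.31 and 6.29 against 8.31, near the filter of 5 log2 units.

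Among the metabolic genes besides SESN2 and TIGAR, TP53I3, a quinone reductase, gave -0.46 ± 0.26, and SESN1, a second sestrin, -0.65 ± 0.58 with 6.43, 3.48 and 6.19 log2 units with Ra against 6.37, 5.83 and 5.84 in control cells. The low SESN1 mean came from Ra replicate 2 alone. The 12 apoptosis genes had a median of -0.18, and of 0.01 without that array, and FAS was the 1 that passed. TNFRSF10B had 11.69, 11.28 and 11.77 with Ra, against 12.26, 12.06 and 11.91 in control cells, lower without overlap by -0.50 ± 0.15 (limma adjusted p = 0.0506), and its other probe sets gave -0.75 and -0.73. PMAIP1, which encodes the BH3-only protein Noxa, gave -0.72 ± 0.32 (adjusted p = 0.131) with overlapping groups. BAX, the effector that permeabilises mitochondria, gave -0.34, the exonuclease gene AEN -0.39, the RNA-binding protein gene ZMAT3 -0.37 and PHLDA3, an inhibitor of AKT, -0.26. TP53INP1, an autophagy and stress protein, gave -0.11, EI24, a protein of the endoplasmic reticulum, -0.10, TRIAP1, which inhibits apoptosis, -0.03, NINJ1, which ruptures the membrane of dying cells, 0.01 and PERP 0.39.

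Without Ra 48 h replicate 2, the list divided evenly: 15 members were higher and 14 lower, with a median of 0.02 against 0.01 over all genes. SESN2 (-1.92 ± 0.42, limma adjusted p = 0.0161), GADD45A (-1.59 ± 0.26, 0.00616) and TIGAR (-0.46 ± 0.13, 0.0325) still fell, FAS rose by 1.21 ± 0.20 (0.00648), and PLK2 rose by 0.77 ± 0.21 (0.0311). In that model 19.3% of all genes passed. With all arrays kept and put on a common scale by quantile normalization, the median of all genes at 48 h was 0.01, and the members had 13 higher and 16 lower means with 4 rises and 5 falls. Over all genes the calls then split into 1553 rises and 1461 falls (51.5% rises, and 55.1% with each array centred on its median), against 301 and 961 as deposited (23.9%). SESN2 (-2.41), GADD45A (-1.61), TIGAR (-0.54) and FAS (1.18) kept their direction and their call under that scaling and with each array centred on its median. The lower means of the whole list at 48 h thus moved with 1 array and with the scaling. Without that array the direction turned for SESN1 (-0.65 with all arrays) and PPM1D (-0.41). It also turned for the smaller differences of PLK3, XPC, TP53INP1, EI24, TRIAP1, POLH and CCNG1.

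**Figure D3:**
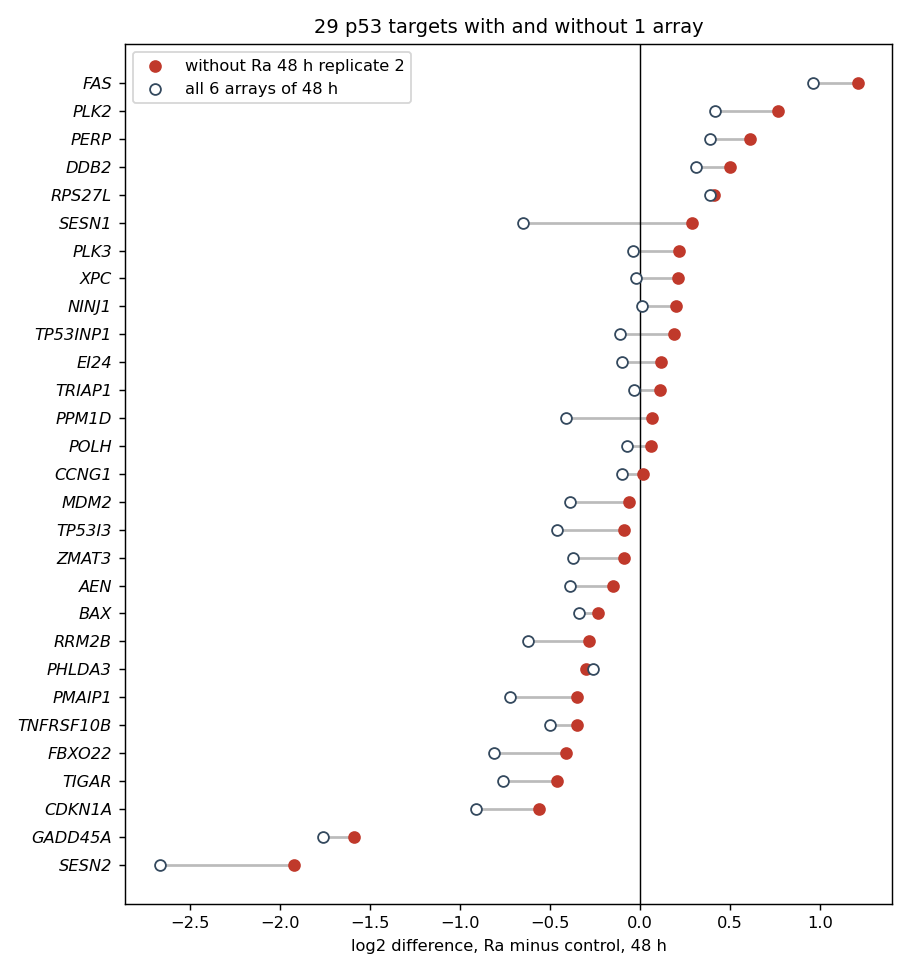
Log2 difference at 48 h, Ra minus control (horizontal axis), of each tested p53 target without Ra 48 h replicate 2 (filled) and with all 6 arrays of 48 h (open), joined by a line. SESN2 and GADD45A stay lowest and FAS highest in both, while 9 genes between them change sign.

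The 4 tested members that are also known as ATF4 or CHOP targets (SESN2, GADD45A, TNFRSF10B, PMAIP1) were all lower at 48 h in treated cells, and their median difference was -1.24, against -0.11 for the other 25 members. Without Ra 48 h replicate 2 these medians were -0.97 and 0.07, with 4 of 4 and 10 of 25 lower. As a mean level relative to control cells at 12 h, the 4 genes stood at 0.69, -0.81 and -0.16 log2 units on the Ra 48 h arrays, against 1.30, 1.20 and 1.46 on the control 48 h arrays. The other 25 stood at 0.28, -0.62 and 0.08 with Ra, against 0.13, 0.04 and 0.09 in control cells. The mean level of the 4 shared genes thus separated treated from control arrays at 48 h, and that of the 25 others did not. Gene by gene, PMAIP1 of the 4 overlapped between the groups and the other 3 lay lower without overlap. Of the 25 others, 1 lay higher and 6 lower without overlap, where 24% of all genes did not overlap (5.37% higher and 18.6% lower). The 4 members also known as FOXO targets (SESN1, GADD45A, CDKN1A, TP53INP1) had a median of -0.78, and -0.18 without that array. These sets were drawn with earlier results of these arrays known, so their medians and mean levels are a description.

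**Figure D4:**
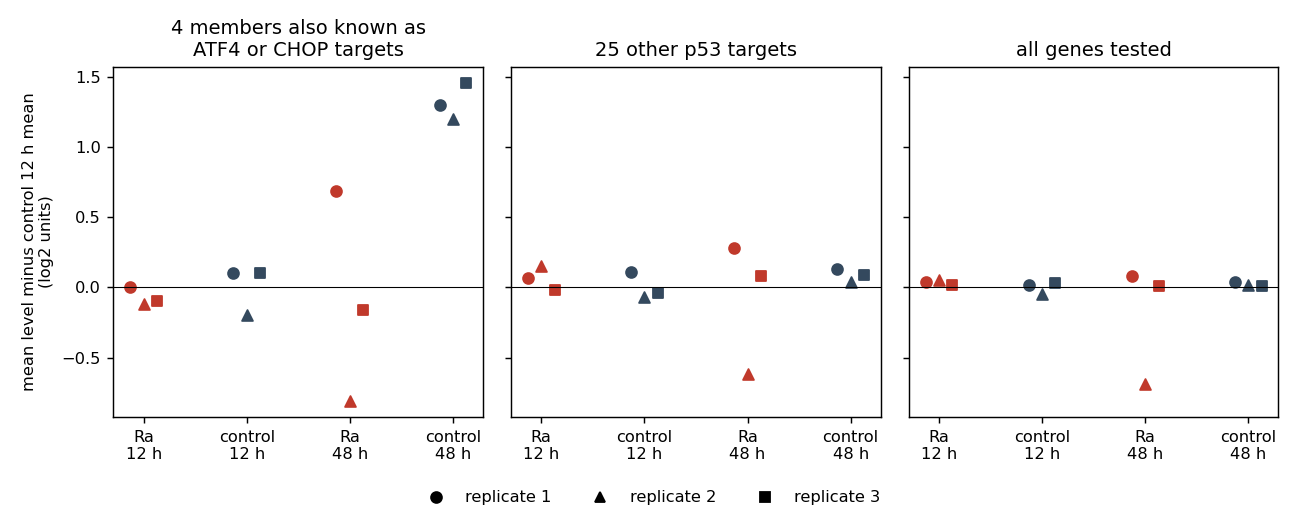
Mean level per array relative to the mean of control cells at 12 h (log2 units, vertical axis) for the 4 members also known as ATF4 or CHOP targets, the 25 other p53 targets and all 10050 tested genes. In control cells at 48 h the 4 genes lie at 1.20 to 1.46, and Ra 48 h replicate 2 (triangle) is lowest in every panel.

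SESN2, GADD45A and CDKN1A rose over time in control cells. There, 6 members rose and 2 fell at 48 h relative to 12 h in the 12-array model, where 19.5% of all genes passed (9.37% higher and 10.1% lower). The same control arrays of 48 h stand on the other side of the Ra comparison above, so the 2 sets of differences are not independent. GADD45A rose by 2.19 ± 0.25 (4.565-fold; limma adjusted p = 0.00121), with 11.97, 12.25 and 12.51 log2 units at 48 h, against 10.14, 9.69 and 10.33 at 12 h. SESN2 rose by 2.17 ± 0.56 (4.486-fold; 0.0192), with 10.36, 10.13 and 10.51 at 48 h, against 8.25, 8.05 and 8.20 at 12 h. CDKN1A rose by 1.18 ± 0.32 (2.259-fold; 0.0252), ZMAT3 by 1.08 ± 0.24 (0.0103), TNFRSF10B by 0.72 ± 0.15 (0.00858) and CCNG1 by 0.59 ± 0.15 (0.0186). The falls were those of TP53I3 (-1.04 ± 0.26, 0.017) and FAS (-0.76 ± 0.24, 0.0407), whose 3 other probe sets gave -1.23, -0.91 and -0.95.

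Over the 29 members the median change in control cells was 0.19, against 0.01 over all genes, and the groups did not overlap for 13 higher and 6 lower members, where 50.8% of all genes did not (24.8% higher and 26% lower). A model of the 6 control arrays alone called 7 rises, MDM2 among them (0.53, limma adjusted p = 0.0322), and 4 falls, with TRIAP1 (-0.47, 0.0152) and TP53INP1 (-0.38, 0.0475) added, where 33.2% of all genes passed. The count in the 12-array model was 2 to 5 without any 1 of the 3 control 12 h arrays, and 3 or 4 without control 48 h replicate 1 or 2. In cells treated with Ra, 0 of the 29 members passed between 48 h and 12 h, as did 0% of all genes, and 3 members and 15.5% of all genes had an unadjusted p under 0.05. SESN2 changed by 0.01 ± 0.56 and GADD45A by 0.52 ± 0.25 there, CDKN1A by 0.24 ± 0.32 and TNFRSF10B by -0.11 ± 0.15. FAS changed by 0.01 ± 0.24 in treated cells. TP53I3 was lower at 48 h than at 12 h in treated as in control cells: it changed by -1.51 ± 0.26 with Ra (limma adjusted p = 0.0957), with 7.40, 6.38 and 7.55 log2 units at 48 h against 8.61, 8.69 and 8.57 at 12 h, and ZMAT3 changed by 0.75 ± 0.24 (0.216), with 9.03, 8.06 and 8.73 against 7.93, 8.0 and 7.64. Neither gene overlapped between the times in treated cells, as was so for 3 higher and 2 lower members in all and for 2.49% (higher) and 17% (lower) of all genes.

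The effect of Ra at 48 h was set against that at 12 h in a test of the difference itself. Of the 29 members 0 passed, where 0.0199% of all genes did, and 5 members and 19.2% of all genes had an unadjusted p under 0.05. The median difference was -0.33, against -0.19 over all genes. The members with the smallest p were GADD45A (-1.67 ± 0.35, limma adjusted p = 0.0774), TNFRSF10B (-0.84 ± 0.21, 0.106) and SESN2 (-2.15 ± 0.79, 0.176). TNFRSF10B was higher with Ra at 12 h and lower at 48 h, without overlap at either time, yet the change between the times did not pass. Without Ra 48 h replicate 1 the count was 4, and without Ra 48 h replicate 2 or control 48 h replicate 3 it was 2.

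The promoter sequences of the members were read from RefSeq (GRCh38.p14) as windows of 300 bases, from 250 before to 50 after a transcript start, and searched for the p53 half-site consensus of 10 bases with 0 mismatches. The consensus pattern is its own reverse complement, so a match on 1 strand is a match on both. Of the listed members 27 had a window, and 8 of them (29.6%) held a half-site in at least 1 window, against 8.06% of 27305 genes with a window. The 8 were DDB2, FAS, FDXR, PLK2, SESN1, AEN, RPS27L and EI24. TNFRSF10B, PHLDA3, FBXO22, GADD45A, TP53INP1 and RRM2B were not in the table. p53 sites of many targets are known to lie in introns or farther upstream, outside such windows, and a match here is a description of letters. FAS (1 of its 3 windows) and DDB2 (1 of 2) are shown because they hold half-sites and passed a test as higher with Ra, at 48 h and at 12 h, and SESN2 and TIGAR because they fell at both times and hold none. CCNG1, which was higher with Ra at 12 h, holds none either. Capitals mark the half-sites, and sequences run 5′ to 3′ in the direction of the transcript.
FAS, chr10:88991181-88991480, plus strand: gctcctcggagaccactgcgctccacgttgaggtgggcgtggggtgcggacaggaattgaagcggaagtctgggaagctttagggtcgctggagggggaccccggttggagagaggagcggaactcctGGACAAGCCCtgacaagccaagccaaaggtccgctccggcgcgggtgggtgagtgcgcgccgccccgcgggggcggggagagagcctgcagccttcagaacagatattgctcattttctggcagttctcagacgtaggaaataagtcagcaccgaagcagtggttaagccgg
DDB2, chr11:47214724-47215023, plus strand: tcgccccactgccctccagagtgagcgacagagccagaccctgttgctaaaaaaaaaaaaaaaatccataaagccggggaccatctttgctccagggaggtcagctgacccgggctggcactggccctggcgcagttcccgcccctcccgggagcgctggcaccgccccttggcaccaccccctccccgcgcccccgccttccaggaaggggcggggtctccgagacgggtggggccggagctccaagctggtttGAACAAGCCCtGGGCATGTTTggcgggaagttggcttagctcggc
SESN2, chr1:28259268-28259567, plus strand: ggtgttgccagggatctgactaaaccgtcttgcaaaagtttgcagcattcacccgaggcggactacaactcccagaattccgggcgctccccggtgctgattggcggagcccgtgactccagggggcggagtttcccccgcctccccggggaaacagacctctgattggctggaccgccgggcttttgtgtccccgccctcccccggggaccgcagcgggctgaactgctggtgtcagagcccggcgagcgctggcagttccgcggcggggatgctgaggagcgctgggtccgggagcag
TIGAR, chr12:4320963-4321262, plus strand: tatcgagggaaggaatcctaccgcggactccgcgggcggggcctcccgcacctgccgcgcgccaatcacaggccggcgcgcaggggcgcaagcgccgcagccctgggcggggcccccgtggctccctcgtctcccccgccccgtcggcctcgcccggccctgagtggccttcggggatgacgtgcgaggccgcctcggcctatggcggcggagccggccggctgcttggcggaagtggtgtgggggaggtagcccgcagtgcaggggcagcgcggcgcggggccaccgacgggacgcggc

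Positions count from the transcript start, with bases before it negative, and the half-site of FAS begins at -122. In DDB2, 2 half-sites begin at positions 5 and 16 after the start and are separated by 1 base, the paired arrangement that p53 is known to bind. The remaining half-sites are shown with 10 bases on either side, to compare their letters and what stands next to them.
PLK2, chr5:58460199-58460228, minus strand: tggcgggacaAGACTTGCTTcccggccacg
SESN1, chr6:109009018-109009047, minus strand: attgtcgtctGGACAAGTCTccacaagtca
AEN, chr15:88621296-88621325, plus strand: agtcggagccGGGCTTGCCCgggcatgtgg
RPS27L, chr15:63157517-63157546, minus strand: ggcctagagcAGACAAGCCCgccccgccgc
EI24, chr11:125569457-125569486, plus strand: cgtgcggcccGGGCATGCCCagtgcgggcg
FDXR, chr17:74872986-74873015, minus strand: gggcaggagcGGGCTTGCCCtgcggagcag

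**Figure D5:**
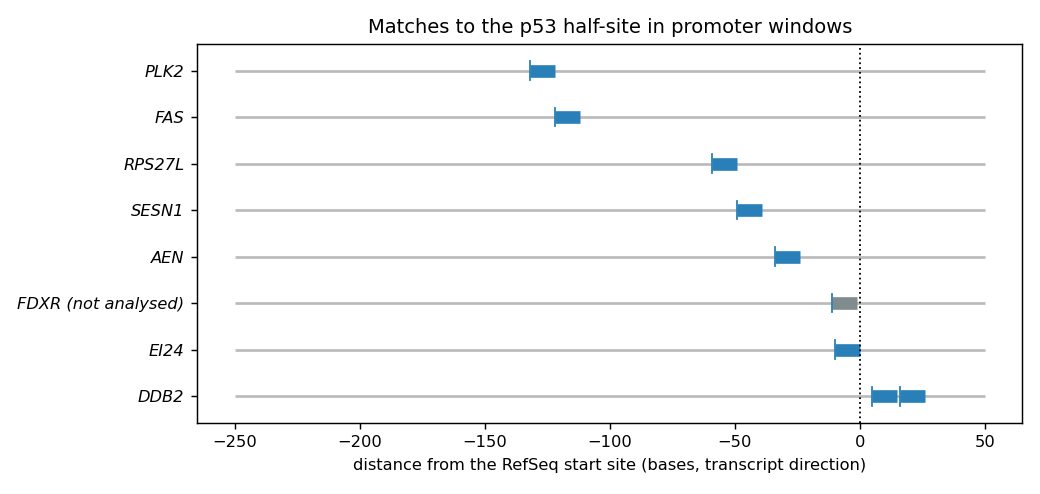
Position of each half-site match (bar of 10 bases) relative to the RefSeq transcript start (horizontal axis, bases in the direction of the transcript) in the 8 listed genes that hold one. Matches lie between positions -132 (PLK2) and 16 (DDB2), and FDXR (grey) was not analysed here.

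The 7 tested members with a half-site had a median difference of 0.31 with Ra at 48 h (4 higher and 3 lower, from -0.65 to 0.96), against -0.36 for the 16 members with a window and no half-site (2 higher and 14 lower, from -2.67 to 0.39). Without Ra 48 h replicate 2 these medians were 0.41 (6 higher and 1 lower) and -0.02 (8 higher and 8 lower). At 12 h they were 0.12 and 0.00. In control cells between 48 h and 12 h they were -0.17 and 0.20, so the order turned round there, in a comparison that shares the control 48 h arrays. FAS, PLK2, RPS27L and DDB2 were the 4 holders that were higher with Ra at 48 h, and SESN1, the lowest holder, turned to 0.29 without Ra 48 h replicate 2. The ranges of the 2 sets overlapped in all 3 comparisons, and the difference between them was not tested.

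Genes that act on p53 were also examined. Of 25 listed regulators 20 were tested, and 0 passed with Ra at 12 h in the 12-array model. In the 6-array model of 12 h, which called 13.6% of all genes, ATM, the kinase that signals DNA breaks to p53, rose by 0.44 ± 0.12 (limma adjusted p = 0.0471). USP7, which removes ubiquitin from MDM2 and p53, fell to 8.73, 8.86 and 9.00 log2 units with Ra, against 9.42, 9.41 and 9.16 in control cells (-0.47 ± 0.11, 0.0342). UBE3A, the ligase through which E6 acts on p53, fell to 10.29, 10.08 and 10.21 with Ra, against 10.71, 10.53 and 10.49 in control cells (-0.38 ± 0.09, 0.0333). With the replicate number as a block 3 regulators rose and 3 fell at 12 h, where 23.4% of all genes were called. At 48 h the 12-array model called 1 rise and 3 falls among the 20, where 12.6% of all genes were called. HIPK2, a kinase that phosphorylates p53, rose by 0.74 ± 0.23 (0.0495), and RCHY1, a ubiquitin ligase for p53, gave -1.22 ± 0.23 (0.0127), the largest fall of the 20. CREBBP, an acetyltransferase that p53 recruits, gave -0.90 ± 0.20 (0.0208). MDM4, a relative of MDM2 that blocks p53's activation domain, had 10.32, 9.98 and 9.87 with Ra at 48 h, against 10.86, 10.69 and 10.54 in control cells, a fall without overlap of -0.64 ± 0.16 (0.0259). In the 6-array model of 48 h, where 0% of genes passed, 0 of the 20 did (adjusted p = 0.192 for RCHY1 to 0.26 for HIPK2 among the 4). Without Ra 48 h replicate 2 the 12-array model called 2 rises and 4 falls, among 19.3% of all genes, and these 4 kept their direction and call (HIPK2 0.99, RCHY1 -0.94, CREBBP -0.69, MDM4 -0.60).

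A further 46 known p53 targets were listed, of which 40 were tested. At 12 h 0 passed in the 12-array model, and in the 6-array model 9 rose and 0 fell, where 7.34% and 6.25% of all genes did. With the replicate number as a block 14 rose and 2 fell, among 23.4% of all genes. ANKRA2, an ankyrin repeat protein, had 6.93, 6.89 and 7.13 log2 units with Ra, against 5.00, 5.14 and 5.39 in control cells, a rise of 1.80 ± 0.14 (limma adjusted p = 0.00395). GDF15, a secreted stress cytokine, had 12.06, 11.68 and 11.47 with Ra, against 11.19, 10.49 and 10.54 in control cells (0.99 ± 0.21, 0.0244). CYFIP2 rose by 0.67 ± 0.16 (0.0333), the antiproliferative gene BTG1 by 0.53 ± 0.06 (0.00643) and APAF1, the scaffold of the apoptosome, by 0.51 ± 0.12 (0.03). All 5 had no overlap between the groups at 12 h. The same held for 14 higher and 3 lower of the 40, and for 35.3% of all genes (18.4% higher and 16.9% lower).

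At 48 h 2 of the 40 rose and 4 fell in the 12-array model, 0 were called on the 6 arrays of 48 h alone, and without Ra 48 h replicate 2 the counts were 8 and 4. The shares of all genes called were 12.6% (3% higher and 9.56% lower), 0% and 19.3%. ATF3, a stress-induced transcription factor that is also a known target of ATF4, had 10.03, 7.98 and 7.37 log2 units with Ra, against 11.87, 12.19 and 11.86 in control cells (-3.52 ± 0.57; limma adjusted p = 0.00982). As for SESN2 and GADD45A, all treated arrays were lower at 48 h, and control cells at 48 h lay far above those at 12 h (6.96, 5.51 and 7.14). At 12 h the order differed: ATF3 was higher with Ra without overlap (7.99, 7.53 and 7.38). That difference was 1.10 (6-array limma adjusted p = 0.11), where SESN2 gave -0.51 and GADD45A -0.10. The growth factor TGFA rose by 1.04 ± 0.20 (0.0128) and PCNA, the sliding clamp of DNA replication and repair, by 0.99 ± 0.22 (0.0208), with 13.13, 13.25 and 13.66 with Ra, against 11.86, 12.23 and 12.98 in control cells. DUSP14 gave -0.86 ± 0.23 (0.0355) and BTG1 -0.85 ± 0.19 (0.0206). PTP4A1, named to complete the count, gave -0.62 ± 0.17 (0.0389). Without Ra 48 h replicate 2 these 6 kept their direction and call, from -3.27 for ATF3 to 1.20 for TGFA. BTG1 was thus higher with Ra at 12 h and lower at 48 h. The difference between its effects, -1.38 ± 0.27, had a limma adjusted p of 0.0726. That p was 0.0441 with the replicate number as a block, a pairing that the 48 h arrays did not bear out. With a separate block at each time it was 0.0535.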

How the data were processed

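Total RNA from 12 HK-2 samples, 3 for each of 4 groups, was measured on Affymetrix 3′ expression arrays; groups, times and replicate numbers come from the labels. The deposited values are log2 expression values that the authors made with GCRMA, per the submitters' processing notes; GCRMA corrects the background by probe sequence, normalizes the arrays and summarises each probe set, and it shrinks low signals. Its version and the arrays normalized together are not stated in any source used here. No pair of arrays held identical values (0 pairs).

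Probe sets were named through the platform annotation: of 54675, 41097 had 1 symbol, 1801 had several and 11777 were unnamed. Of those with 1 symbol, 41043 matched RefSeq. Probe sets with at least 5 log2 units on at least 3 arrays were kept, and the one with the highest mean stood for its gene (10050 genes). limma 3.58.1 in R 4.3.3 fitted 4 group means over 12 arrays (8 residual degrees of freedom) with an intensity trend and no block, with Benjamini-Hochberg adjustment over all genes at 0.05. Fits on 6 arrays of 1 time were alternatives; fits of 1 treatment, and half-site medians, gene groups and single regulators without Ra 48 h replicate 2, were added after the data were seen. The code was tested on simulated data. All 33 listed genes are named, and of the regulators and other targets up to 5 with the largest called difference at each time; PTP4A1 falls outside this rule.

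The members and gene lists were chosen with earlier results of these data known, so no list was tested and each is described by counts and medians. Deviations of same-numbered Ra and control arrays from their group means correlated at 0.182, 0.421 and 0.344 at 12 h, and at 0.301, -0.219 and 0.097 at 48 h. Differently numbered arrays gave -0.397 to -0.00399 at 12 h. Deviations from a group mean cancel within the group, so this range is not independent of the same-numbered values. The numbers were taken as pairs at 12 h only. Promoter windows and half-sites come from RefSeq (GRCh38.p14). Plots were drawn with matplotlib 3.10.9.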

Additional observations from a re-analysis of the deposited data

How the results depend on the processing

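The counts of called p53 targets depended on how the spread was estimated and on single arrays. Against 0 calls at 12 h, quantile normalization gave 1, centring of arrays 1, array weights 7, the 6 arrays of 12 h alone 5, and those with the replicate block 7. Against 4 calls at 48 h, there was 1 with no filter, 2 without cross-hybridising probe set types, 9 with quantile normalization (4 rises and 5 falls), 9 with centring (5 and 4), 11 with array weights, 0 on the 6 arrays of 48 h and 2 on these with the replicate block. For the effect at 48 h minus that at 12 h (0 calls), a filter of 7 log2 units gave 1, quantile normalization 3, centring 2 and array weights 8. For Ra 48 h minus Ra 12 h (0 calls) the same settings gave 1, 2, 2 and 2. For control 48 h minus control 12 h (8 calls), no filter gave 5, leaving out cross-hybridising types 3 and array weights 16. The median at 48 h, -0.34, was -0.06 with array weights. Leaving out 1 array gave 0 to 1 calls at 12 h (1 without Ra 48 h replicate 2), 1 to 10 at 48 h, 0 to 4 for the difference, 0 to 1 for Ra over time (1 without any 1 of the Ra 48 h arrays) and 2 to 12 for control cells over time. At 48 h it gave 10 without Ra replicate 1, 2 without Ra replicate 3 and 1 without control replicate 1 or 2. The medians then ranged from -0.01 to 0.12 at 12 h (0.12 without Ra 12 h replicate 3) and from -0.50 to 0.02 at 48 h. The replicate block in the 12-array model gave 0 calls at 12 h, 5 at 48 h, with CDKN1A added, and 8 in control cells over time, and changed no other count. Among the members' differences, 0 called ones reversed under any setting. Fits on the arrays of 1 time cannot give a comparison between times and were not run for it. The cause of these shifts was not tested. With 3 arrays per group and a wide spread with Ra at 48 h, small differences there were not detectable.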

Other observations

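Several members had probe sets that differed in size or sign. Of 13 members with more than 1 probe set above the filter, all probe sets had 1 sign in 9 for Ra minus control at 12 h. The counts were 11 at 48 h and 12 for control cells between 48 h and 12 h. A difference that rounded to 0.00 was counted as another sign. The exceptions at 48 h, ZMAT3 and PLK3 (-0.04 and 0.00), were of this kind, without opposite signs. ZMAT3, an RNA-binding p53 target, gave 1.08, 0.96, 0.81, 0.75 and 0.73 log2 units over time in control cells, while at 48 h its Ra minus control differences were -0.37, -0.37, 0.00, -0.12 and 0.00. EI24 gave -0.34 and -0.83 over time in control cells. RPS27L gave 0.39, 0.40 and 0.10 with Ra at 48 h. Of the fibroblast markers above the filter, COL1A1 was lower with Ra at 48 h without overlap (-1.02 ± 0.39, limma adjusted p = 0.0922, and -0.41 without Ra 48 h replicate 2) and DCN gave 0.88 ± 0.47 (0.207). Their part in the results on p53 targets was not tested.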
